A study of Mus musculus with 12 samples.

Results

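The MyoD family consists of 4 transcription factors of the basic helix-loop-helix class, coded by Myod1, Myf5, Myog (myogenin) and Myf6 (also called MRF4). They pair with E proteins, bind the E-box sequence CANNTG and switch on skeletal muscle genes. In muscle formation Myf5 and Myod1 act early and set the myoblast identity, Myog acts at differentiation, and Myf6 is known for a role in differentiation and in mature fibres. They also regulate each other's genes, and Myog is a well known target of MyoD.

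The 4 genes were found by their symbols in the array's annotation, with 1 probe set each, out of 8251 genes named there and 12422 probe sets without the array's controls. RNA came from 2C5/7 fibroblasts, a single line of embryonic origin with the genotype MyoD-/-;Myf5-/-, which all groups share. The cells carried a retrovirus with the coding sequence of MyoD, Myf5 or myogenin, or one with the fluorescent protein hrGFP and no factor, and each of these 4 groups had 3 mouse MG_U74Av2 arrays. In the factor viruses the factor and hrGFP were translated from 1 mRNA driven by the viral LTR promoter. Infected cells were sorted by fluorescence to an estimated 75 to 85% purity, were not cloned and grew attached in DMEM containing fetal calf serum at 10%, and myogenin and hrGFP served as controls. No treatment time or day after infection is given in the sources used here. The comparisons ask which family transcripts differ with each factor, and, for the gene whose factor was delivered, whether its probe set registered the virus.

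A signal is the deposited MAS5 intensity of a probe set, and median signals per array ran from 16.2 to 35.9. Differences are between group means of quantile-normalized log2(signal + 6.33), where 6.33 is a pseudocount that understates changes of low signals, and carry ± the standard error (n = 3 arrays against 3) or a 95% interval from limma. A difference passed at an adjusted p under 0.05 over 8485 probe sets. Nothing in the labels says that replicates were separate cultures, so these p-values measure a spread between samples that may be technical. MyoD replicate 5 and hrGFP replicate 5 stood apart, with 3' to 5' signal ratios of the beta-actin control of 25.7 and 37.6, against 0.968 to 1.11 on the other 10 arrays, and Gapdh ratios of 32.4 and 33.0 against 0.786 to 1.03. Values without these 2 arrays are given beside the results. By chip lot and hybridization day the arrays fell into 3 batches. Batch 1 held MyoD, Myf5 and hrGFP replicates 3 and 4, batch 2 held their replicate 5, and batch 3 held the myogenin arrays. Batch and group therefore cannot be told apart in any comparison with myogenin. The description fields of Myf5 replicate 5 and hrGFP replicate 5 carry the same sample code, and both arrays were used as their titles name them.

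Fibroblast identity was checked with 12 markers, of which 9 to 11 per group were above a signal of 15.0 on all arrays of the group. As 15.0 is the 40th percentile of signals, many other probe sets clear it too. The 12 marker signals summed to between 6133 and 15507 on hrGFP arrays and 5925 and 13110 on MyoD arrays. They summed to between 8062 and 10416 on Myf5 arrays, and 10248 and 13002 on myogenin arrays. Of the 12, 0 passed limma's test against hrGFP in each of the 3 comparisons, and 1, 1 and 4 had an unadjusted p under 0.05 with MyoD, Myf5 and myogenin, where 3.55%, 3.01% and 11.5% of all probe sets had. Between factors, Col1a1, a fibrillar collagen chain, was lower with MyoD than with myogenin by -1.55 ± 0.26 (adjusted p = 0.0274), where 0.412% of all probe sets were called. In that comparison 3 of 12 had an unadjusted p under 0.05, with 4 in Myf5 against myogenin and 0 in MyoD against Myf5. Of all probe sets, 13.8%, 9.18% and 3.71% had one, in the same order. Against hrGFP no tested marker of other lineages passed. These were macrophages and leukocytes (3 of 7 markers tested), endothelium (1 of 5), epithelium (2 of 5), smooth muscle (3 of 5), adipocytes (3 of 5) and neural cells (2 of 5). Among them 1 smooth muscle marker, with myogenin, had an unadjusted p under 0.05. Such tests do not show that a lineage was absent. Smooth muscle marker signals summed to between 1138 and 3884 on hrGFP arrays and 1397 and 2740 on MyoD arrays. They summed to between 1023 and 4410 on Myf5 arrays and 3219 and 4548 on myogenin arrays. The other lineages summed to at most 1032, for neural markers with Myf5.

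The Myog promoter is shown because Myog was the family member that passed a test, and because its short upstream region is a classical site of control by E-box and Mef2 factors. The 200 bases before the transcript start, at chr1:134289804-134290003 on the plus strand of GRCm38.p6 in RefSeq, read as follows, with a Six-binding MEF3 site, a MEF2 site core and the proximal E-box in capitals, in that order.
Myog promoter: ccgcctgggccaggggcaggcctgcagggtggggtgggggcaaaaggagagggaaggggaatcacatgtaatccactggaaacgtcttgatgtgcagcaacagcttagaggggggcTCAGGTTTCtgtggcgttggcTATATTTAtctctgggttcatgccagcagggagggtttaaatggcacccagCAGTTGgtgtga
The letters searched, on both strands, were TCAGGTTTC for MEF3, TATATTTA for the MEF2 core, CAGTTG for the proximal E-box and CANNTG for any E-box, of which CAGTTG is one form. The MEF3 letters lay 84 to 76 bases before the start, the MEF2 core 63 to 56 and CAGTTG 12 to 7. Of 32851 promoter windows of this length, 0.314% held the MEF3 letters, 0.813% the MEF2 core and 8.96% CAGTTG. At least 1 CANNTG was found in 58.2% of windows, and 23.4% held 2 or more, as the Myog window did. The letters were fixed forms, and CAGTTG was searched as the proximal E-box of this promoter. That it was found is therefore not a separate result. Shares of exact letters do not measure how rare such sites are. The matches describe the sequence and do not show binding in these cells.

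Myog, the differentiation factor of the family, was highest with MyoD. Its signals were 443, 409 and 165 with MyoD replicates 3, 4 and 5, and 83.0, 46.1 and 111 with Myf5 replicates 3, 4 and 5. They were 89.2, 89.8 and 122 with myogenin replicates 2, 3 and 6, and 24.2, 33.9 and 53.1 with hrGFP replicates 3, 4 and 5. Each MyoD array lay above each of the other 9 arrays, an order seen for 0.742% of all probe sets tested, while Myf5 and myogenin arrays overlapped each other. The probe sets of Myod1 and Myf5, whose functional genes the line lacks, read 38.4 to 100 and 27.1 to 143 over all groups. Myog signals outside the MyoD group lay in or below that range, so they do not by themselves show expression.

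Against hrGFP, Myog rose with MyoD by 2.87 ± 0.47, a 7.32-fold difference with a 95% interval of 3.63 to 14.7 (adjusted p = 0.0167). It was the 1 of 4 members that passed in this comparison, where 0.412% of all probe sets did, and it ranked 22 by p. It was also the 1 member with an unadjusted p under 0.05 (3.55% of probe sets) and the 1 without overlap (5.28%). Within the MyoD group replicate 5, which had the high control ratios, was the lowest, and the SD over the 3 normalized values was 1.07. Without MyoD 5 and hrGFP 5 the rise was 3.52 (adjusted p = 0.000593), and within batch 1 it was 3.52 (adjusted p = 0.00355). In batch 2, with 1 array per group and no test, the Myog signal was 165 with MyoD, 111 with Myf5 and 53.1 with hrGFP. The call was lost without MyoD 3 (difference 2.58, adjusted p = 0.0956), MyoD 4 (2.56, adjusted p = 0.122) or hrGFP 3 (2.51, adjusted p = 0.0869), and when only the MyoD and hrGFP arrays entered the fit (2.95, adjusted p = 0.259).

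**Figure D1:**
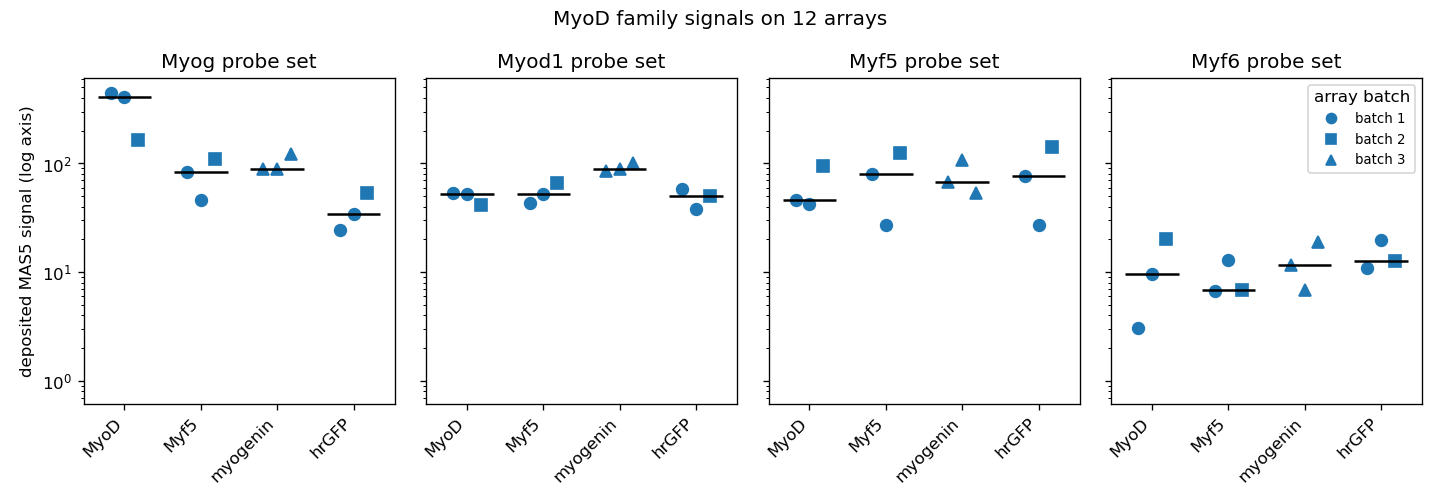
Deposited MAS5 signal (log axis) of the 4 family probe sets on each array, by group, with 1 point per array, a marker shape for each array batch and a bar at the group median. Myog stands between 165 and 443 with MyoD and between 24.2 and 122 elsewhere; Myf6 stays between 3.08 and 20.0.

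With Myf5, Myog differed from hrGFP by 0.78 ± 0.47, a ratio of 1.71 with an interval of 0.850 to 3.45 (adjusted p = 0.973). The normalized values of the groups did not overlap, 6.18 to 6.35 against 4.78 to 5.96, which held for 8.66% of probe sets in this comparison. Deposited signals did overlap, since hrGFP 5 at 53.1 was above Myf5 4 at 46.1, arrays of different batches. Between arrays of the same replicate number, and so of 1 batch, Myog signals were 3.42, 1.36 and 2.09 times as high with Myf5 as with hrGFP. By limma's test 0 of the 4 members passed in this comparison, where 0.0118% of probe sets were called (1 probe set, or 4 when replicates were blocked), and 0 had an unadjusted p under 0.05, as 3.01% of probe sets had.

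The direct comparison of MyoD with Myf5 tests the difference between their Myog responses. Myog was 2.09 ± 0.47 higher with MyoD, a ratio of 4.27 with an interval of 2.12 to 8.61, and the groups did not overlap, but the difference did not pass (adjusted p = 0.193). In this comparison 0.224% of probe sets were called, 9.76% did not overlap and 3.71% had an unadjusted p under 0.05, Myog being the 1 member among them. Leaving out MyoD 5 changed the call, with a difference of 2.68 (adjusted p = 0.00793). Leaving out MyoD 5 together with hrGFP 5 gave 2.62 (adjusted p = 0.00394), and batch 1 alone gave 2.66 (adjusted p = 0.0353).

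In the myogenin group, Myog is also the gene the virus delivers. Myog differed from hrGFP there by 1.12 ± 0.47, a ratio of 2.17 with an interval of 1.08 to 4.37, and this did not pass (adjusted p = 0.386, with an unadjusted p of 0.0331). There was no overlap between the 3 myogenin and the 3 hrGFP arrays, as for 18.1% of probe sets in this comparison. Of the 4 members 0 were called, against 0.13% of probe sets, and 2 (Myog and Myod1) had an unadjusted p under 0.05, against 11.5%. The Myog probe set was 1.76 ± 0.47 higher with MyoD than with myogenin, a ratio of 3.38 with an interval of 1.68 to 6.80 (adjusted p = 0.161). In that comparison 0.412% of probe sets were called, 22.4% did not overlap and 13.8% had an unadjusted p under 0.05, Myog and Myod1 among them. Without MyoD 5 the difference was 2.34 (adjusted p = 0.0212), and leaving out hrGFP 5 as well gave 2.30 (adjusted p = 0.00866). The order of mean Myog levels was MyoD (8.38), myogenin (6.63), Myf5 (6.29) and hrGFP (5.51), and no neighbouring pair in it passed. Myogenin and Myf5 differed by 0.34 (adjusted p = 0.894), in a comparison where 0.0354% of probe sets were called, 26.4% did not overlap and 9.18% had an unadjusted p under 0.05.

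**Figure D2:**
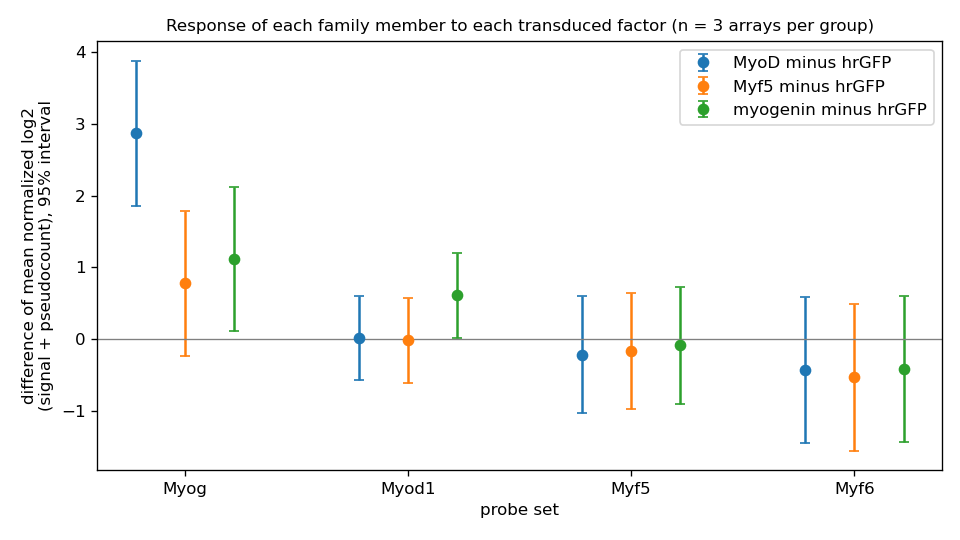
Difference of mean normalized log2(signal + pseudocount) between each factor group and hrGFP for the 4 family probe sets, with 95% intervals from limma (n = 3 arrays per group). The interval for Myog with MyoD, 1.86 to 3.88, lies farthest from 0; that for Myod1 with MyoD, -0.58 to 0.60, and that for Myf5 with Myf5, -0.98 to 0.65, contain 0.

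Myod1 codes for MyoD, and its functional gene is missing from this line. Its signals were 54.1, 52.4 and 41.3 on the arrays of cells given the MyoD virus, replicates 3, 4 and 5, and 42.8, 52.5 and 66.8 on those of cells given the Myf5 virus. With hrGFP alone they were 58.6, 38.4 and 50.0, and with myogenin, replicates 2, 3 and 6, they were 84.4, 89.1 and 100. The MyoD, Myf5 and hrGFP arrays overlapped in full, and the 3 myogenin arrays had the highest deposited signals of all 12. On the normalized scale, where 3.15% of probe sets had each myogenin array above the other 9, Myod1 was not among them.

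The Myod1 probe set did not register the MyoD virus as a rise. Cells with that virus differed from hrGFP cells by 0.01 ± 0.27, a ratio of 1.01 whose interval of 0.671 to 1.51 reaches 1.51-fold on this scale (adjusted p = 0.9998). With the Myf5 virus the Myod1 difference was -0.02 ± 0.27 (interval -0.61 to 0.57). With myogenin Myod1 was 0.61 ± 0.27 higher than with hrGFP, a ratio of 1.52 with an interval of 1.01 to 2.29, and this did not pass (adjusted p = 0.417). Set against MyoD and Myf5 arrays, the myogenin group was higher by similar amounts, with differences of -0.60 (MyoD minus myogenin, adjusted p = 0.351) and -0.63 (Myf5 minus myogenin, adjusted p = 0.510). After normalization Myf5 4, at 6.36, lay above myogenin 3, at 6.27. As stated above, batch and group cannot be told apart for these myogenin differences.

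The Myf5 probe set did not register its own virus either. Its signals on arrays of cells with the Myf5 virus, replicates 3, 4 and 5, were 79.6, 27.4 and 125. They were 45.9, 42.3 and 95.4 with MyoD and 77.2, 27.1 and 143 with hrGFP, in the same order, and 67.6, 108 and 53.1 with myogenin replicates 2, 3 and 6. All 4 groups overlapped.

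Myf5-virus cells differed from hrGFP cells in the Myf5 probe set by -0.17 ± 0.37, a ratio of 0.892 with an interval of 0.507 to 1.57 (adjusted p = 0.973). With MyoD the Myf5 difference was -0.22 ± 0.37 (interval -1.03 to 0.59) and with myogenin -0.09 ± 0.37 (interval -0.90 to 0.73). The Myf5 values differed by array batch, since the 3 replicate 5 arrays read 95.4 to 143 and the 6 batch 1 arrays 27.1 to 79.6. On the normalized scale these ranges were 6.51 to 6.95 and 5.50 to 6.28, again without overlap. Of all probe sets tested, 6.08% were higher on every batch 2 array than on every batch 1 array. The beta-actin control ratio of Myf5 replicate 5 was 1.11, and those of the other batch 2 arrays were 25.7 and 37.6. The part of RNA quality and batch in these values was not tested.

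Myf6, the family member of mature fibres, had the lowest signals. They were 3.08, 9.69 and 20.0 with MyoD replicates 3, 4 and 5, 6.66, 12.9 and 6.92 with Myf5, and 11.02, 19.6 and 12.8 with hrGFP. With myogenin replicates 2, 3 and 6 they were 11.7, 6.90 and 19.1. All groups overlapped, and 3 of the 12 arrays, in different groups, were above the filter signal of 15.0, which is the least the filter accepts.

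Myf6 differed from hrGFP by -0.43 ± 0.47 with MyoD (interval -1.45 to 0.59), by -0.54 ± 0.47 with Myf5 (-1.56 to 0.49) and by -0.42 ± 0.47 with myogenin (-1.44 to 0.61). None passed, with adjusted p of 0.9998, 0.973 and 0.711. With most arrays under the filter signal these intervals, which rest on the pseudocount, do not bound a change of Myf6, and with no pseudocount the standard error was 0.78. In RefSeq annotation of GRCm38.p6 Myf5 and Myf6 lie side by side on chromosome 10 with 0 annotated genes between them. Over the 12 arrays the correlation of their values was -0.30, a description of arrays that share batches.

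For the 3 delivered factors the matching probe set differed from hrGFP by 0.01 (Myod1), -0.17 (Myf5) and 1.12 (Myog), and none of the 3 passed. The line lacks functional Myod1 and Myf5 genes but not Myog, so in the myogenin group transcripts of the virus and of the cells' own Myog cannot be told apart. Probe sequences were not used here, and whether the probes lie in a part of each gene that the virus carries was not tested. These 3 probe sets therefore could not check which factor the cells of an array had received.

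Among the 6273 other genes tested, those most like Myog over the 12 arrays, by Pearson correlation of normalized values, all coded for sarcomere proteins. They were the troponin T genes Tnnt2 (r = 0.94) and Tnnt3 (0.91), the embryonic myosin heavy chain Myh3 (0.92), the slow and cardiac troponin C Tnnc1 (0.91) and the slow troponin I Tnni1 (0.90). They were chosen over arrays that include the MyoD group, where Myog is high, so their own difference with MyoD is not a separate result. Over the 9 arrays without MyoD the correlations were 0.74 for Tnnt2, 0.80 for Tnnt3, 0.64 for Myh3, 0.74 for Tnnc1 and 0.67 for Tnni1. The 12 arrays share batches and groups, so these are descriptions.

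Within the MyoD group Myog and all 5 genes were lowest on replicate 5 on the normalized scale. That array had a beta-actin control ratio of 25.7. The 5 genes were chosen for correlation with Myog over these same arrays. That they share its order within groups is therefore not a separate result. Tnnt2 signals were 364, 359 and 173 with MyoD replicates 3, 4 and 5, and Tnni1 signals were 549, 546 and 181, each lowest on replicate 5 like Myog. Normalized values of Tnnt3 were 7.81, 8.49 and 7.43, and those of Tnnc1 were 9.57, 9.38 and 8.60. Before normalization Tnnt3 was lowest on replicate 3, with a signal of 191 against 285 and 210. Myh3 signals were 116, 112 and 66.4. In the myogenin group Myog and all 5 genes were highest on replicate 6.

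**Figure D3:**
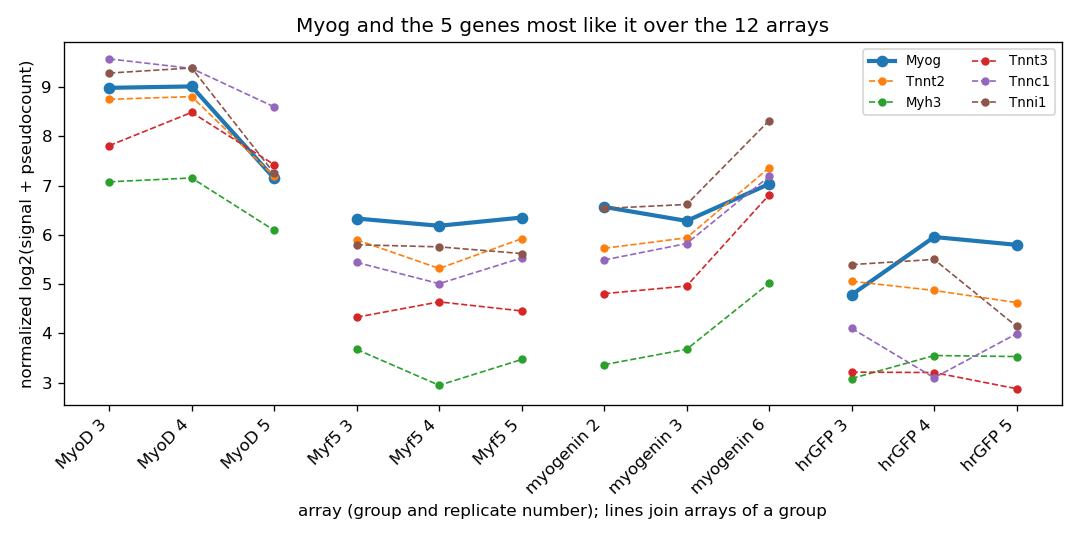
Normalized log2(signal + pseudocount) of Myog and the 5 genes most like it on each of the 12 arrays, with lines joining the arrays of a group. All 6 are highest with MyoD on average and, within that group, lowest on replicate 5, where Myog reads 7.15 against 8.99 and 9.02. The 5 genes were chosen for this likeness over the same arrays.

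The genes most like Myod1 had their highest group mean with myogenin: Zap70 (r = 0.95), Pigt (0.93), Cog1 (0.93), Tsc22d4 (0.92) and H6pd (0.92). Myod1 itself had its highest mean there, 6.50, and the genes were chosen for likeness to it, so their pattern is not a separate result. The myogenin arrays were also the whole of batch 3, so batch and group cannot be told apart here. For Zap70 the mean was 5.63 with myogenin and 4.62 to 4.84 in the other groups. Those most like Myf5 were Matr3 (r = 0.95), Arf6 (0.94), Haus6 (0.93), Ywhaq (0.93) and Rcn2 (0.92), and those most like Myf6 were Pabpc2 (r = 0.87), Col9a2 (0.87), Grhpr (0.84), Trgv1 (0.83) and Nadk (0.82). The probe sets of Matr3, Haus6, Grhpr and Ywhaq, and that of Tcf12 below, carry suffixes for probes that may be shared, and those of Zap70 and, below, Tead1 one for relaxed probe choice, so their signal may not be of that gene alone.

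The family's partners and regulators were read from lists of known pathway genes, with 1 probe set per gene. The E proteins Tcf3, Tcf4 and Tcf12, which pair with MyoD family factors on DNA, gave 0 of 3 passing in each comparison with hrGFP, and 1 unadjusted p under 0.05, for Tcf12 with Myf5. Of all probe sets, 0.412%, 0.0118% and 0.13% were called with MyoD, Myf5 and myogenin. The shares with an unadjusted p under 0.05 were 3.55%, 3.01% and 11.5%. Differences of the E protein genes ran from -0.22 to 0.08 with MyoD, and the largest were Tcf12 with Myf5 (-0.51 ± 0.23) and Tcf4 with myogenin (-0.51 ± 0.30).

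Mef2 factors bind beside the family at muscle promoters, and 1 of 4 rose with MyoD, where 0.412% of all probe sets were called. The list median was 0.89 against -0.01 over all probe sets, and 2 of 4 had an unadjusted p under 0.05, against 3.55%. The 1 that rose was Mef2a, at 1.42 ± 0.27 (adjusted p = 0.0467). Mef2a did not pass without MyoD 5 and hrGFP 5 (1.46, adjusted p = 0.0742) or within batch 1 (1.47, adjusted p = 0.173), nor when replicates were blocked (1.45, adjusted p = 0.0510). It also failed whichever array was left out, with adjusted p up to 0.272, except with myogenin 2 left out. Mef2c differed by 1.29 ± 0.39 (adjusted p = 0.596). With Myf5 and with myogenin 0 of 4 passed or had an unadjusted p under 0.05, with medians of 0.15 and 0.45. Of all probe sets, 0.0118% and 0.13% were called there, and 3.01% and 11.5% had an unadjusted p under 0.05.

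Of 18 tested inhibitors of family activity, 1 rose with MyoD and 0 with Myf5 or myogenin (1 and 3 at an unadjusted p under 0.05), shares to be read against 0.412% of all probe sets called with MyoD, and 3.01% and 11.5% at the unadjusted threshold with Myf5 and myogenin. The list had medians of 0.05, 0.16 and 0.06. The gene was Id2, whose protein ties up E proteins, at 1.59 ± 0.29 (adjusted p = 0.0391). Id2 no longer passed without any 1 of MyoD 3, 4 or 5, Myf5 3, 4 or 5, hrGFP 3 or 4, or myogenin 3, with adjusted p between 0.0659 and 0.166. It also failed without normalization (adjusted p = 0.962) and with median centring (0.259). Id2 differed by 1.08 ± 0.29 with Myf5 and 1.28 ± 0.29 with myogenin, and neither passed. The 11 tested coactivators and chromatin cofactors, the 7 upstream regulators and the 5 genes of cell cycle exit had 0 passing in each comparison with hrGFP. At an unadjusted p under 0.05 there were 2 with MyoD, both of cell cycle exit, 0 with Myf5, and with myogenin 1 cofactor and 3 upstream regulators. Of all probe sets, 0.412%, 0.0118% and 0.13% were called with MyoD, Myf5 and myogenin, and 3.55%, 3.01% and 11.5% had an unadjusted p under 0.05. Medians of these 3 lists with MyoD were 0.00, -0.29 and 0.45. The largest single differences with MyoD in those lists were Prmt5 (-0.45 ± 0.39) and Tead1 (0.33 ± 0.46), Six4 (0.57 ± 0.28) and Foxc2 (-0.42 ± 0.35), and Rb1 (1.43 ± 0.43) and Cdkn1a (1.09 ± 0.32).

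**Figure D4:**
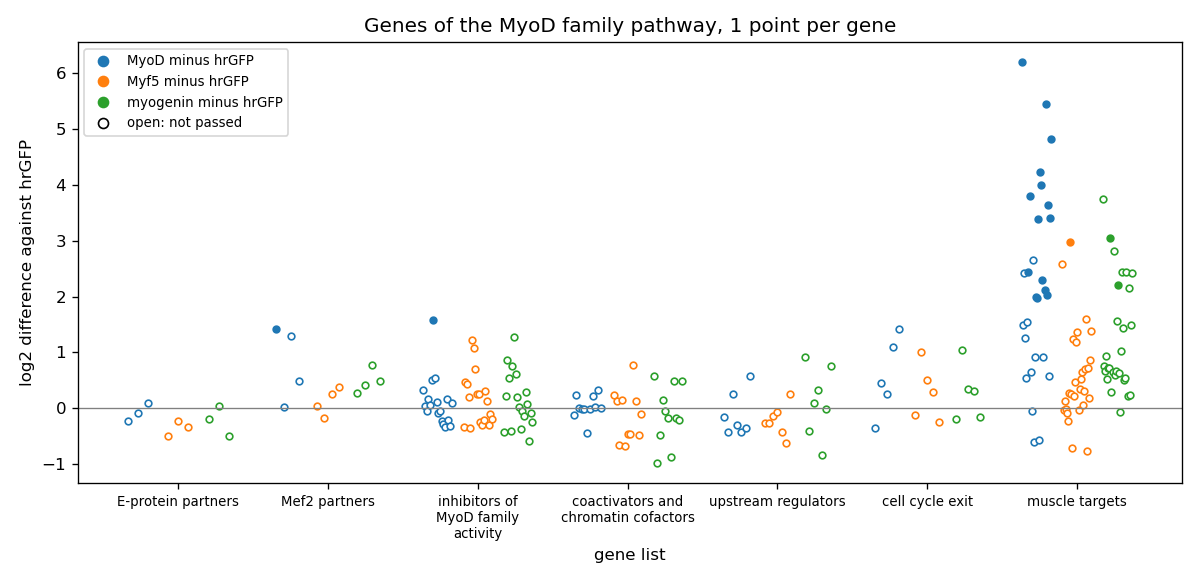
Log2 difference against hrGFP of each tested gene in 7 lists of the MyoD family pathway, with 1 point per gene, a colour per factor and filled points for an adjusted p under 0.05. Of 28 muscle targets 15 are filled with MyoD, 1 with Myf5 and 2 with myogenin; in the other lists Mef2a and Id2 are filled, both with MyoD.

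Known muscle targets of the family passed most often with MyoD. The list was chosen with earlier results of these data known. A target could also meet the filter of 3 arrays through the MyoD arrays alone. Outside that group Myh3 was above 15.0 only on myogenin 6, at 28.4. Counts from this list are therefore descriptions. With MyoD 23 of 28 had an unadjusted p under 0.05, against 3.55% of all probe sets, with a median of 2.07 against -0.01. Of the 28, 15 rose, 0 fell and 13 did not pass, where 0.412% of all probe sets were called. Among those that rose were the skeletal actin Acta1 (6.19 ± 0.67, adjusted p = 0.000847), Tnnc1 (5.46 ± 0.44, adjusted p = 5.09e-05), Tnnt3 (4.81 ± 0.46, adjusted p = 0.000233) and the myosin light chain Myl1 (4.22 ± 0.51, adjusted p = 0.00209). On hrGFP arrays Tnnc1 and Tnnt3 were under the filter signal of 15.0 on 3 of 3 and Acta1 and Myl1 on 2 of 3, so the sizes depend on the pseudocount and are given as fitted. With no pseudocount Acta1 rose by 7.38, Tnnc1 by 6.56 and Tnnt3 by 6.85, and with the larger one by 5.46, 4.73 and 3.85. Without MyoD 5 and hrGFP 5, 14 passed, and without MyoD 4 it was 7. With Myf5, 7 of 28 had an unadjusted p under 0.05, against 3.01% of all probe sets, and 1 rose, where 0.0118% were called. It was Chrnb1, the acetylcholine receptor beta subunit, at 2.98 ± 0.30 (adjusted p = 0.00244), with a list median of 0.33. Its hrGFP signals, 1.86 to 6.54, were all under the filter signal, and the difference was 4.46 with no pseudocount.

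With myogenin Chrnb1 (3.04 ± 0.30, adjusted p = 0.00197) and the laminin receptor Itga7 (2.20 ± 0.25, adjusted p = 0.0038) rose, 2 of 28, with a median of 0.74. Without MyoD 5, or without MyoD 5 and hrGFP 5, 6 passed. With all arrays 0.13% of all probe sets were called in this comparison. An unadjusted p under 0.05 was seen for 13 of 28, against 11.5% of all probe sets. The Itga7 probe set has a suffix for probes that may be shared with other transcripts, and its hrGFP signals were under the filter signal on all 3 arrays. A second Itga7 probe set differed by 2.19 ± 0.49 with myogenin and did not pass (adjusted p = 0.114). Itga7 was also among the 15 that rose with MyoD, at 1.98 ± 0.25 (adjusted p = 0.00291). There too the second probe set did not pass, at 1.32 ± 0.49 (adjusted p = 0.9998). The 3 comparisons share their hrGFP arrays. MyoD against Myf5 tests the difference itself, and 8 of 28 were higher with MyoD and 0 lower, with a median of 1.48 against 0.02 over all probe sets, and 13 were higher without MyoD 5 and hrGFP 5. That count was 2 without MyoD 3 or MyoD 4 and 4 without Myf5 3 or Myf5 4. Against myogenin 6 of 28 were higher with MyoD. Over all probe sets 0.224% were called in MyoD against Myf5 and 0.412% in MyoD against myogenin. In these 2 comparisons 19 and 15 of 28 had an unadjusted p under 0.05, against 3.71% and 13.8% of all probe sets. In bulk samples, fewer responding cells and less RNA per cell cannot be told apart. Signals of the 30 listed muscle targets summed to between 630 and 1209 on hrGFP arrays, 4645 and 6852 on MyoD arrays, 776 and 1914 on Myf5 arrays, and 1833 and 3293 on myogenin arrays. Myf5 overlapped myogenin and hrGFP in this sum, and MyoD overlapped no other group.

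**Figure D5:**
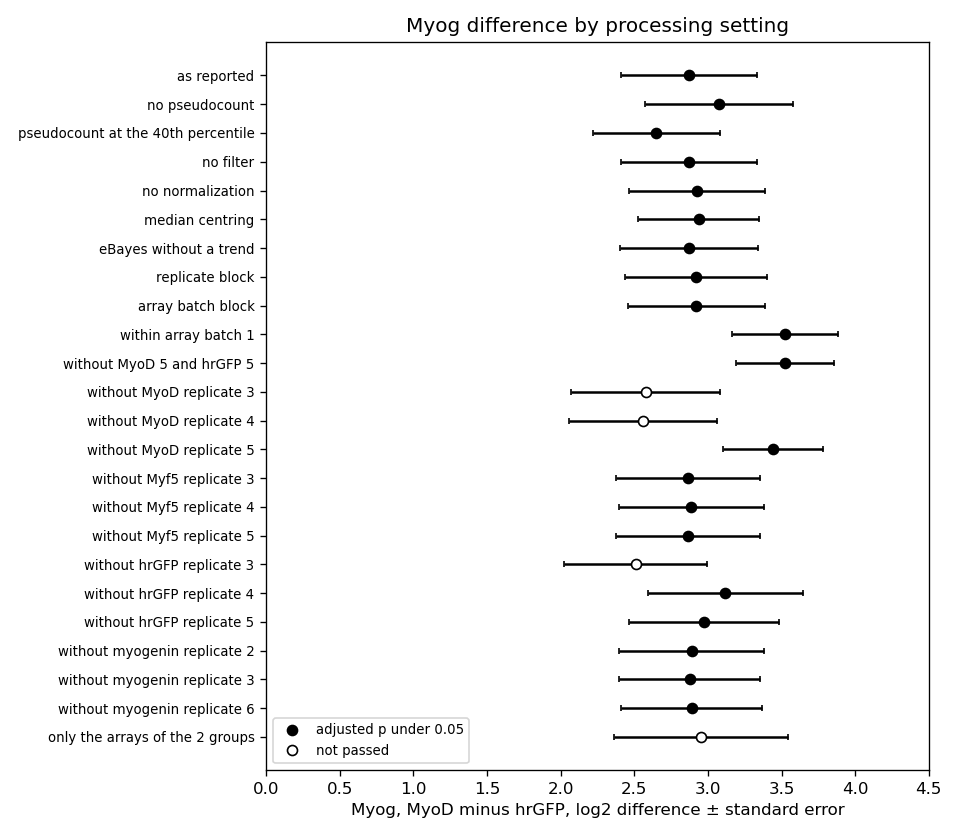
Difference in Myog between MyoD and hrGFP, in log2 ± standard error, as reported and under 23 other settings; filled points have an adjusted p under 0.05. All 24 lie between 2.51 and 3.52, and 4 of them, open points, do not pass.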

How the data were processed

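The deposited intensity signals, 1 per probe set and array, were made by the authors with MAS5, per the submitters' processing notes; for its version, scaling and calls the sources used here give nothing. The experiment information files hold other text, chip lot and hybridization day, per the file headers, used to find array batches. Trimmed mean signals differed 2.50-fold between arrays. A pseudocount of 6.33 (25th percentile) was added, and log2 values were quantile-normalized with limma 3.58.1 in R 4.3.3. The 66 array controls were left out, and 8485 of 12422 probe sets with a signal above 15.0 (40th percentile) on at least 3 arrays were kept. The linear model had 1 mean for each group and took in all 12 arrays (8 residual degrees of freedom), with trended moderated statistics and Benjamini-Hochberg adjustment over 8485 probe sets for each of 6 comparisons. The number of arrays limits the precision. The procedure was tested on simulated data.

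Members, lists and tests were chosen with earlier results of these data known. Named genes are the 4 members, the 5 genes most correlated with each, and up to 4 called genes per list (otherwise up to 2), by the probe set of highest mean. Mef2c was named after its values were seen. The labels do not say that replicate numbers pair the arrays. Deviations from the group means were correlated between same-numbered arrays. For MyoD with hrGFP and Myf5 with hrGFP all 6 correlations lay between 0.11 and 0.83. For MyoD with Myf5 they were -0.01, 0.11 and 0.11 for replicates 3, 4 and 5. The 0.83 was for MyoD 5 with hrGFP 5, the arrays with high control ratios. Pairs of different numbers ran from -0.67 to 0.48, with MyoD 3 and hrGFP 4 at 0.48 and Myf5 5 and hrGFP 3 at 0.15. Replicate 5 was the whole of batch 2, so for it number and batch cannot be told apart. Within batch 1, Myf5 with hrGFP gave 0.12 (3 with 3) and 0.33 (4 with 4), against -0.19 (3 with 4) and -0.20 (4 with 3). MyoD with hrGFP gave 0.50 and 0.39 against 0.48 and 0.37, in the same order. MyoD with Myf5 gave -0.01 and 0.11 against 0.05 and -0.06. Whether the numbers pair the arrays was not tested. Alternatives changed the pseudocount, filter, normalization, trend, blocks and the arrays used. The promoter came from RefSeq's GRCm38.p6 table.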

Additional observations from a re-analysis of the deposited data

How the results depend on the processing

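Of 23 alternatives, Myog with MyoD against hrGFP kept its direction in all and passed in 19. The members passing in that comparison numbered 1, 0 to 1 with 1 array left out, and 0 with only the arrays of the 2 groups, a fit of fewer samples. MyoD against Myf5 went from 0 to 1 (Myog) within batch 1 and without MyoD 5 and hrGFP 5, and ran from 0 to 1 with 1 array left out. MyoD against myogenin went from 0 to 1 (Myog) without MyoD 5 and hrGFP 5, and likewise ran from 0 to 1. With the replicate block Myog rose by 2.92 with MyoD against hrGFP (adjusted p = 0.0446), and the block changed no member's call and left 15 muscle targets. Muscle target counts, an alternative chosen after seeing the data, went from 15 to between 7 (without MyoD 4) and 14 with 1 array left out for MyoD, from 2 to 6 for myogenin and from 8 to 13 for MyoD against Myf5 without MyoD 5 and hrGFP 5, and with 1 array left out ran from 2 to 6 (without MyoD 5) and from 2 (without MyoD 3 or MyoD 4) to 12 in these 2 comparisons. Differences near 0 that never passed changed sign. Without normalization Myod1 was 0.12 for Myf5 against hrGFP and -0.11 for MyoD against Myf5, and Myf5 was 0.088 for myogenin against hrGFP. Without MyoD 5 and hrGFP 5 the Myf5 probe set was 0.17 for Myf5 and 0.25 for myogenin against hrGFP. Myf6 was 0.0098 (larger pseudocount, the 40th percentile) and 0.068 (median centring) for MyoD against myogenin, and Myf5 was 0.0023 (median centring) for Myf5 against myogenin.

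With 1 array left out, Myod1 ranged from -0.10 to 0.17 for MyoD against hrGFP, -0.27 to 0.15 for Myf5 against hrGFP and -0.14 to 0.28 for MyoD against Myf5. The Myf5 probe set ranged from -0.53 to 0.12 for MyoD, -0.47 to 0.17 for Myf5 and -0.40 to 0.25 for myogenin against hrGFP, from -0.36 to 0.16 for MyoD against Myf5, -0.36 to 0.048 for MyoD against myogenin and -0.29 to 0.23 for Myf5 against myogenin. Myf6 ranged from -0.093 to 0.51 for MyoD against Myf5, -0.24 to 0.39 for MyoD against myogenin and -0.44 to 0.078 for Myf5 against myogenin. Causes were not tested. Myf6 missed the filter in 8 of 23 alternatives for MyoD against hrGFP, so signal over background limits what can be said of it.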
